A study of Gallus gallus with 4 samples.

Results

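The MMR1L4 monocytes were the blood leukocytes of healthy laying hens in which the transcript of MMR1L4 was counted together with LY86, CD14 or CSF3R. MMR1L4 is annotated in RefSeq as a mannose receptor C-type 1-like gene, with the synonym MRC1L-B, at chr2:19447742-19476382 of the chicken genome build GRCg7b. The members were chosen by measured values of 7 genes. A cell was a member where its value of MMR1L4 was at least 1, the sum of LY86, CD14 and CSF3R was at least 2, the sum of the B-cell factors PAX5 and EBF1 was below 3 and the T-cell receptor zeta chain CD247 was at most 1. By this rule 1372 of the 12042 cells of libraries 1 to 3 were monocytes, 247 in library 1, 439 in library 2 and 686 in library 3, and the other 10670 cells are called the remaining cells. Of the remaining cells, 5508 had CD247 at 2 or more, no MMR1L4 and a sum of PAX5 and EBF1 below 3. The series has 4 libraries of 1 condition, with no treatment, and 16936 cells in all. The labels describe adult female laying hybrids of the line Bovans Robust at 24 weeks of age, 1 healthy hen for each library, whereas the study's methods name the line Dekalb White. Blood was drawn into heparin, leukocytes were taken from a Ficoll gradient, thrombocytes were depleted with magnetic beads against CD41/61, and single cells were captured with the 10x Genomics 3′ chemistry. The monocytes are therefore those left after density separation and bead depletion, and their share is not that of whole blood.

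Monocytes are circulating phagocytes that enter tissues and become macrophages. They recognise microbial products through Toll-like receptors and C-type lectins, take up and digest particles in lysosomes, show peptides on MHC class II molecules to T cells, and release interleukin 1 beta and chemokines. Birds have no neutrophils. Their granulocyte counterpart is the heterophil, and their nucleated thrombocytes also take part in innate defence.

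The values in the matrix are whole numbers corrected for depth before deposit. A level is given here as the sum of a gene's values in the cells of 1 group and library, over the sum of all genes' values in those cells, times 10000. The 3 numbers given for a gene are libraries 1, 2 and 3 in that order, and each library is 1 hen, so n = 3 throughout. The 7 genes of the rule were not tested against the remaining cells, since the rule chose on them. All other genes came from the same cells as the rule, so the tests describe how the gated cells differed and are not evidence for the gate.

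The gate genes had the following levels. MMR1L4 was 9.86, 11.6 and 9.2 per 10000 in the monocytes, against 0.0537, 0.0442 and 0.0553 in the remaining cells. CSF3R, the receptor of granulocyte colony-stimulating factor, was 15.7, 23.8 and 17.7 in the monocytes, against 0.371, 0.779 and 0.711 in the remaining cells. LY86, the partner protein of the Toll-like receptor homologue CD180, was 5.91, 14.6 and 14.8 in the monocytes, against 0.075, 0.289 and 0.304 in the remaining cells. Of the monocytes, 99.7% had CSF3R, 88.1% had LY86 and 15.8% had CD14, the co-receptor for bacterial lipopolysaccharide. Thus nearly every member had CSF3R, and few had CD14.

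The limits of the gate left some similar cells outside. There were 1441 cells with MMR1L4 at 1 or more, of which 67 had a sum of LY86, CD14 and CSF3R below 2, and 2 more were set aside by CD247 and 0 by PAX5 and EBF1. On the other side, 312 cells had no MMR1L4 and a sum of LY86, CD14 and CSF3R of 2 or more. Just inside the limits, the 25 monocytes at exactly 1 for MMR1L4 and exactly 2 for the sum had 24.3 per 10000 of FN1, the fibronectin gene, when pooled. Just outside, FN1 was 30.5 per 10000 in the 23 cells with MMR1L4 and a sum of 1. It was 8.6 in the 13 cells with MMR1L4 and a sum of 0, and 27.6 in the 283 cells that had a sum of at least 2, no MMR1L4 and no B-cell or T-cell exclusion, against 39.6 in all monocytes and 0.152 in the 10289 other remaining cells. CD74, the invariant chain of MHC class II, was 13.3 per 10000 just inside the limits, and 10.8, 4.14 and 31.2 in the cells with a sum of 1, with a sum of 0 and without MMR1L4, against 45.4 in all monocytes and 6.71 in the other remaining cells. The cells next to the gate, which the remaining cells include, thus had FN1 far above the other remaining cells, while their CD74 lay on both sides of a line midway to the monocytes. For 459 monocytes, 33.5% of the members, a single value of MMR1L4 decided their membership.

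Monocytes made up 5.55% of the cells of library 1 (exact Clopper-Pearson 95% interval 4.89 to 6.26%), 16.28% of library 2 (14.90 to 17.73%) and 14.02% of library 3 (13.06 to 15.02%), a mean of 11.9 ± 5.66% (SD, n = 3). The intervals cover counting error only. Library 1 lay below libraries 2 and 3 by more than that error, and the intervals of libraries 2 and 3 overlapped. With MMR1L4 at 2 or more and a sum of 3 or more the mean share was 7.79 ± 4.29%, and library 1 again had the lowest share.

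The matrix held 4 sets of barcodes, and those of libraries 3 and 4 shared 4890 barcodes and differed in 0.682% of their summed value, so they were counted as 1 library and library 4 was left out. Other pairs of libraries shared 1 to 9 barcodes. The summed values of libraries 1 to 3 were 10500637, 6517674 and 11808169. The monocytes had a median total of 2403 per cell and 1226 genes, against 2413 and 1083 in the remaining cells. Their median mitochondrial share in the depth-corrected values was 14.2%, against 8.54% in the remaining cells. In the same values 153 monocytes, 11.2%, lay above 20%, a limit that the study's methods apply before normalisation. The levels were therefore also computed without cells past the study's mitochondrial and hemoglobin limits. Of the 31 mitochondrial genome rows tested, 25 were higher in the monocytes and 0 lower, with a median log2 fold change of 0.57, and the part of RNA quality in the results was not tested.

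The label was set beside 10 monocyte and macrophage genes that the gate did not use. They were listed with earlier results of these data known, so they are not an independent check. MARCO, a scavenger receptor of macrophages, was below the filter on low values, and the other 9 were all higher in the monocytes than in the remaining cells. Against the groups of blood cells described below, the 9 were less uniform. Against eosinophil-like cells 7 were higher, and SPI1 and CEBPB were not called. Against B cells 8 were higher and CYBB was not called, and against thrombocytes all 9 were higher. CSF1R, the receptor of macrophage colony-stimulating factor, was 4.77, 6.4 and 6.6 per 10000 in the monocytes, against 0.0974, 0.145 and 0.198 in the remaining cells (log2 fold change 4.61 ± 0.20 (SE), adjusted p = 9.3e-08). SPI1, which encodes PU.1, was 5.52, 7.92 and 5.9 in the monocytes, against 0.824, 1.14 and 0.819 in the remaining cells (log2 fold change 2.67 ± 0.19 (SE), adjusted p = 2.1e-06). In both genes the lowest monocyte value lay above the highest value of the remaining cells. Such a lack of overlap, in either direction, was found for 7446 of the 10441 genes tested. Over all genes, limma called 6936 of 10441 tested genes (66.4%) at a Benjamini-Hochberg adjusted p below 0.05, of which 2347 were higher in the monocytes (22.5%) and 4589 lower (44.0%). The log2 fold changes of all genes had a median of -0.29. The counts of each group of genes below are to be read against these shares. With levels scaled by the median ratio over genes, 45.9% of the calls were higher rather than 33.8%, and that median was -0.07.

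Markers of most other blood cells were lower in the monocytes. The 15 T-cell genes summed to 0.922, 0.478 and 0.543 per 10000, against 80.1, 72.5 and 74.7 in the remaining cells, and all 15 were lower. CD3E was found in 0.583% of monocytes, against 34.6% of the remaining cells. All 10 B-cell genes and all 4 cytolytic genes were lower as well, as were 3 of 4 thrombocyte genes and 3 of 4 basophil genes. The 6 eosinophil genes, in contrast, summed to 10.1, 10.5 and 11.4 per 10000 in the monocytes, against 7.52, 8.23 and 6.43 in the remaining cells. Of these, 4 were lower, FRY was higher (log2 fold change 1.83) and LOC770612 did not pass the test. Of 6 genes of proliferation, 4 were lower and YBX1 was higher (log2 fold change 0.50), a call that was lost without library 2 (adjusted p = 0.16) and without library 3 (adjusted p = 0.13). Hemoglobin transcripts were found in both groups, with HBA1 in 13.8% of monocytes, against 16.1% of the remaining cells and 16.1% of the cells with CD247 at 2 or more. The 3 hemoglobin genes summed to 5.17 per 10000 in the monocytes of library 1, against 1.31 and 1.65 in those of libraries 2 and 3. That level marks library 1 as different within the monocytes, and its part in the spread between hens was not tested.

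**Figure D1:**
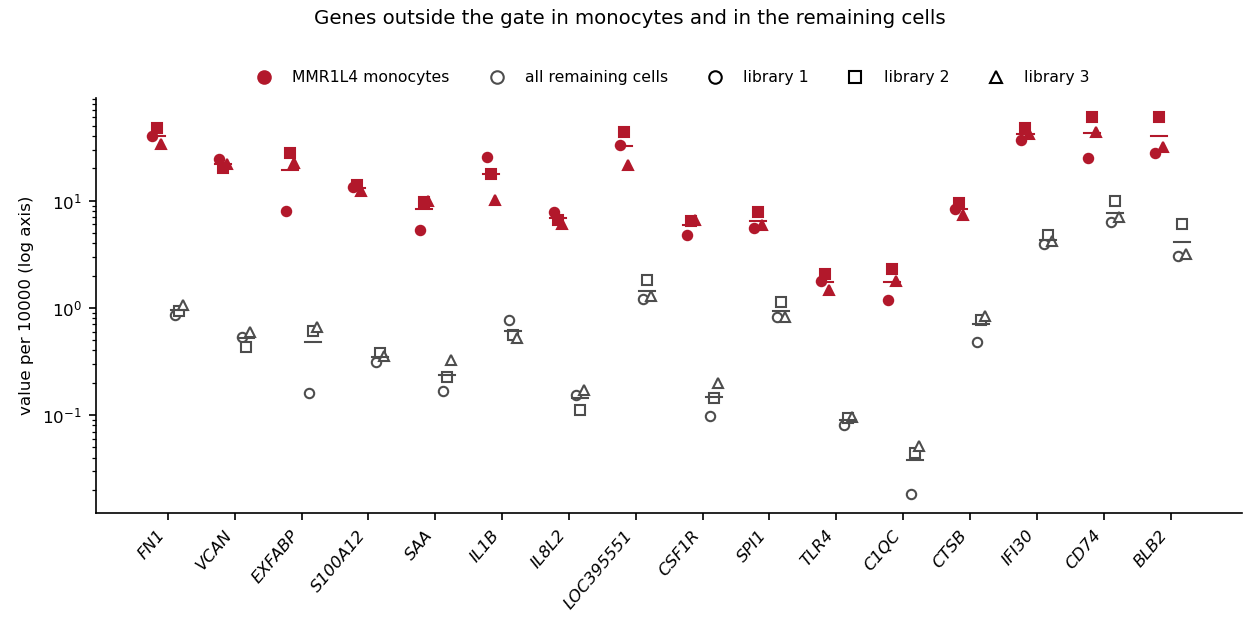
Level per 10000 on a log axis of 16 genes outside the gate, in the monocytes (filled red) and in the remaining cells (open grey) of library 1 (circles), library 2 (squares) and library 3 (triangles), with a line at each mean. The 3 monocyte values lie above the 3 values of the remaining cells for every gene shown, from FN1 at 40.01, 47.7 and 34.2 to BLB2 at 28.0, 61.1 and 31.6. The groups did not overlap, in either direction, for 7446 of 10441 genes tested.

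The antimicrobial and acute-phase genes had the highest median of the lists examined. Of the 27 genes in this list, 11 were in the matrix under the listed name and 9 were tested. All 9 members tested were higher and 0 lower, with a median log2 fold change of 4.62, against -0.29 over all genes. S100A12, a calcium-binding alarmin, was 13.5, 14 and 12.2 per 10000 in the monocytes, against 0.315, 0.381 and 0.352 in the remaining cells (log2 fold change 4.89 ± 0.15 (SE), adjusted p = 1.6e-08). It was found in 60.6% of monocytes and in 2.2% of cells with CD247 at 2 or more, which should lack it. The monocyte values of the 3 hens were within a narrow range and did not overlap with the remaining cells. EXFABP, the extracellular fatty acid-binding protein that binds bacterial siderophores, was 8.03, 27.8 and 22.3 in the monocytes, against 0.159, 0.609 and 0.668 in the remaining cells (log2 fold change 5.05 ± 0.50 (SE), adjusted p = 1.7e-05). SAA, serum amyloid A, was 5.36, 9.78 and 9.96 in the monocytes, against 0.166, 0.225 and 0.323 in the remaining cells (log2 fold change 4.62 ± 0.26 (SE), adjusted p = 4.4e-07). RSFR, a leukocyte ribonuclease, was 1.67, 4.34 and 3.16 in the monocytes, against 0.0233, 0.11 and 0.102 in the remaining cells (log2 fold change 4.09 ± 0.33 (SE), adjusted p = 3.9e-06). For EXFABP, SAA and RSFR the monocytes of library 1 were the lowest of the 3 hens. The other members called were S100A6, S100A10, S100A11, SPINK2 and LOC121107581. LYZ, lysozyme, and CATH1, a cathelicidin of heterophils, were below the filter, with CATH1 at 0, 0.046 and 0.0179 per 10000 in the monocytes.

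Genes of the extracellular matrix and adhesion were divided. Of 23 tested, 12 were higher, 7 were lower and 4 did not pass the test. Fibronectin FN1 was 40.01, 47.7 and 34.2 per 10000 in the monocytes, against 0.853, 0.937 and 1.06 in the remaining cells (log2 fold change 5.27 ± 0.17 (SE), adjusted p = 2.0e-08), and it was found in 99.6% of monocytes. Versican VCAN, a large proteoglycan, was 24.4, 20.1 and 22.1 in the monocytes, against 0.534, 0.433 and 0.595 in the remaining cells (log2 fold change 5.17 ± 0.16 (SE), adjusted p = 1.9e-08). These 2 genes differed little among the 3 hens beside their distance from the remaining cells. The gelatinase MMP9 was 5.77, 4.8 and 1.31 in the monocytes, against 0.188, 0.162 and 0.0839 in the remaining cells (log2 fold change 3.84 ± 0.46 (SE), adjusted p = 5.9e-05). Library 3 had the lowest MMP9 by far. Its inhibitor TIMP2 was higher (log2 fold change 3.51) and the inhibitor TIMP3 was lower (log2 fold change -2.15). Among integrins, ITGAV (log2 fold change 1.38), ITGB5 (log2 fold change 2.66) and ITGA5 (log2 fold change 1.35) were higher. ITGA4 (log2 fold change -2.05) and ITGA6 (log2 fold change -3.18) were lower. Among the groups described below, ITGB5 was higher and ITGA6 lower against each. ITGAV was higher than in B cells, lower than in thrombocytes and not called against eosinophil-like cells. ITGA5 was not called against eosinophil-like cells, nor ITGA4 against thrombocytes. CD44, the hyaluronan receptor, did not pass the test, with 102, 60.8 and 24.3 in the monocytes, against 51.3, 38.3 and 42.2 in the remaining cells (log2 fold change 0.29 ± 0.43 (SE), adjusted p = 0.57). Its monocyte values lay on both sides of the remaining cells.

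Among the receptors for microbial products and their signalling adaptors and kinases, 12 of 25 were higher, 7 were lower and 6 did not pass the test. TLR4, the receptor for lipopolysaccharide, was 1.77, 2.05 and 1.46 per 10000 in the monocytes, against 0.0811, 0.0939 and 0.0948 in the remaining cells (log2 fold change 3.28 ± 0.16 (SE), adjusted p = 1.8e-07), and its co-receptor LY96 was also higher (log2 fold change 2.16). TLR2A was 1.66, 3.04 and 2.88 in the monocytes, against 0.0497, 0.122 and 0.129 in the remaining cells (log2 fold change 3.69 ± 0.25 (SE), adjusted p = 1.5e-06). TLR1B was 5.5, 8.82 and 5.47 in the monocytes, against 0.354, 0.411 and 0.284 in the remaining cells (log2 fold change 3.87 ± 0.21 (SE), adjusted p = 3.5e-07), whereas TLR1A was lower (log2 fold change -0.53), a call that was lost without library 3 (adjusted p = 0.12) and with median-ratio scaling (adjusted p = 0.15). In mammals TLR1 and TLR2 pair to bind bacterial lipopeptides. TLR15 (log2 fold change 2.19), a receptor found in birds and reptiles, TLR7 (log2 fold change 1.84), a receptor for single-stranded RNA, and TLR5 (log2 fold change 0.83), the flagellin receptor, were higher too. TLR3, the receptor for double-stranded RNA, was listed at 0 in the monocytes of all 3 libraries, against 0.0588, 0.0847 and 0.0681 in the remaining cells. The cytosolic sensors NLRC3 (log2 fold change -2.81), NLRC5 (log2 fold change -1.77) and NLRP3 (log2 fold change -0.86) were lower, and NOD1 was higher (log2 fold change 1.43). Among the groups described below, NLRC3, NLRC5 and NLRP3 were lower than in B cells. NLRC5 and NLRP3 were not called against thrombocytes, and NLRC3 and NLRC5 were lower than in eosinophil-like cells. TLR1A was lower than in B cells, not called against thrombocytes and higher than in eosinophil-like cells. TLR7 was not called against B cells, nor TLR5 against eosinophil-like cells. MMR1L3, which lies 12914 bases from MMR1L4 at chr2:19404664-19434827, was 1.13, 1.3 and 1.37 in the monocytes, against 0.0223, 0.0184 and 0.0494 in the remaining cells (log2 fold change 3.40 ± 0.16 (SE), adjusted p = 1.3e-07). Both are annotated as mannose receptor-like genes, and how reads were divided between them is uncertain.

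Of the genes of phagocytosis, the NADPH oxidase and complement, 18 of 27 were higher, 3 were lower and 6 did not pass the test. Their summed level, however, was 53.3, 66.7 and 68.6 per 10000 in the monocytes, against 69.4, 73.1 and 67.6 in the remaining cells. The 3 chains of complement C1q were all higher, with C1QC at 1.17, 2.31 and 1.78 per 10000 in the monocytes, against 0.0183, 0.0442 and 0.0513 in the remaining cells (log2 fold change 3.71 ± 0.23 (SE), adjusted p = 7.7e-07). C1QA (log2 fold change 2.67) and C1QB (log2 fold change 2.26) were higher too. Receptors that bind apoptotic cells were higher as well, namely MERTK (log2 fold change 1.79), AXL (log2 fold change 1.39) and TIMD4 (log2 fold change 1.32). LYN, a Src-family kinase, was 21.9, 23 and 25.1 in the monocytes, against 3.8, 4.9 and 3.88 in the remaining cells (log2 fold change 2.45 ± 0.16 (SE), adjusted p = 1.3e-06). FCER1G, the common gamma chain of Fc receptors, was 1.45, 2.96 and 2.56 in the monocytes, against 0.279, 0.538 and 0.328 in the remaining cells (log2 fold change 2.31 ± 0.28 (SE), adjusted p = 6.0e-05). Oxidase subunits were less uniform, since CYBB (log2 fold change 1.44) and NCF4 (log2 fold change 0.56) were higher and CYBA did not pass the test (0.43, adjusted p = 0.19). The call of NCF4 was lost without library 3 (adjusted p = 0.071) and with the stricter gate (adjusted p = 0.073), and CYBA passed the test as higher without library 1 (adjusted p = 0.0395) and with median-ratio scaling (adjusted p = 0.047). DOCK2 (log2 fold change -1.53), ELMO1 (log2 fold change -2.63) and RAC2 (log2 fold change -0.91), which act in the movement of leukocytes and in engulfment, were lower. Of the groups described below, all of these genes were lower than in B cells. DOCK2, however, was higher than in thrombocytes and not called against eosinophil-like cells. ELMO1 was not called against thrombocytes and was lower than in eosinophil-like cells, and RAC2 was lower than in both. Among the genes higher than in the remaining cells, LYN and TIMD4 were not called against eosinophil-like cells. FCER1G was not called against thrombocytes and was lower than in eosinophil-like cells. NCF4 was lower than in B cells.

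Lysosomal genes were higher with few exceptions, in 29 of 33 tested, at a median log2 fold change of 1.88. The cysteine protease CTSB was 8.3, 9.55 and 7.34 per 10000 in the monocytes, against 0.481, 0.777 and 0.842 in the remaining cells (log2 fold change 3.43 ± 0.21 (SE), adjusted p = 6.7e-07). CTSS, a protease that trims the invariant chain of MHC class II, was 3.49, 5.85 and 5.84 in the monocytes, against 0.524, 0.676 and 0.748 in the remaining cells (log2 fold change 2.76 ± 0.22 (SE), adjusted p = 4.4e-06). Granulin GRN was 3.75, 7.0 and 5.87 in the monocytes, against 0.258, 0.368 and 0.372 in the remaining cells (log2 fold change 3.67 ± 0.23 (SE), adjusted p = 9.1e-07). RefSeq types the GRN entry as a long non-coding RNA. The called genes also included legumain LGMN, the membrane proteins LAMP1 and LAMP2, the cholesterol carriers NPC1 and NPC2, and 7 subunits or accessory proteins of the proton pump. GLB1 (log2 fold change -1.41) and LAMP3 (log2 fold change -1.98) were lower. CTSD did not pass the test (-0.44, adjusted p = 0.15), but was lower without library 2 (adjusted p = 0.021).

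Of the MHC class II pathway, 9 of 14 genes were higher, 2 were lower and 3 did not pass the test. CD74, the invariant chain that guides class II molecules to the endosome, was 25.1, 60.3 and 43.6 per 10000 in the monocytes, against 6.36, 9.88 and 7.02 in the remaining cells (log2 fold change 2.39 ± 0.30 (SE), adjusted p = 9.0e-05). BLB2, a classical class II beta chain, was 28, 61.1 and 31.6 in the monocytes, against 3.03, 6.11 and 3.16 in the remaining cells (log2 fold change 3.25 ± 0.34 (SE), adjusted p = 2.3e-05). Both genes were lowest in the monocytes of library 1, and the groups did not overlap. BLB1, the neighbouring beta chain, was 6.8, 13.8 and 10.03 in the monocytes, against 2.72, 3.67 and 2.36 in the remaining cells (log2 fold change 1.74 ± 0.26 (SE), adjusted p = 2.7e-04). BLB1 and BLB2 are near copies, so the division of reads between them is uncertain. IFI30, a thiol reductase of the endosome, was 36.6, 47.9 and 42.3 in the monocytes, against 3.93, 4.81 and 4.25 in the remaining cells (log2 fold change 3.26 ± 0.17 (SE), adjusted p = 2.5e-07). The peptide-exchange genes DMA (log2 fold change 2.54) and DMB2 (log2 fold change 2.38) and the co-stimulatory genes CD40 (log2 fold change 1.71), CD83 (log2 fold change 1.67) and CD86 (log2 fold change 1.14) were higher too. In contrast, the class II transactivator CIITA was 0.266, 0.184 and 0.274 in the monocytes, against 0.599, 0.965 and 0.536 in the remaining cells (log2 fold change -1.20 ± 0.21 (SE), adjusted p = 7.7e-04), and RFX5, a factor of the class II promoter, was lower (log2 fold change -0.66), though without library 2 it was not called (adjusted p = 0.054). Among the groups described below, CIITA was lower in the monocytes than in B cells, but higher than in thrombocytes and in eosinophil-like cells.

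Of the cytokine and chemokine ligands, 10 of 14 were higher, 3 were lower and 1 did not pass the test. IL1B, interleukin 1 beta, was 25.8, 17.9 and 10.1 per 10000 in the monocytes, against 0.764, 0.558 and 0.518 in the remaining cells (log2 fold change 4.57 ± 0.30 (SE), adjusted p = 1.2e-06). LOC395551, which RefSeq gives the synonym CCL4, was 32.9, 43.6 and 21.8 in the monocytes, against 1.22, 1.81 and 1.3 in the remaining cells (log2 fold change 4.38 ± 0.26 (SE), adjusted p = 5.5e-07). IL8L2, one of 2 chicken genes like interleukin 8, was 7.88, 6.63 and 6.11 in the monocytes, against 0.154, 0.11 and 0.172 in the remaining cells (log2 fold change 4.83 ± 0.17 (SE), adjusted p = 2.6e-08). IL8L1 was 2.91, 4.62 and 2.99 in the monocytes, against 0.204, 0.0497 and 0.0701 in the remaining cells (log2 fold change 4.16 ± 0.28 (SE), adjusted p = 1.3e-06). Their genes lie 9351 bases apart on chromosome 4 in overlap with RASSF6, and reads may be shared among the 3. They differed in how many monocytes held them, with IL8L1 in 10.3% and IL8L2 in 59.9%. IL18 (log2 fold change 2.62), IL15 (log2 fold change 3.27) and CSF1 (log2 fold change 1.05) were also higher. IL16 (log2 fold change -1.50), TNFSF13B (log2 fold change -2.03), which encodes the B-cell survival factor BAFF, and CCL5 (log2 fold change -1.18) were lower. Among the groups described below, CSF1 was higher than in B cells and thrombocytes, but lower than in eosinophil-like cells. IL15 was not called against thrombocytes. IL16 was lower than in B cells and eosinophil-like cells, but higher than in thrombocytes. TNFSF13B was lower than in B cells and thrombocytes, and was not called against eosinophil-like cells.

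Of the cytokine, chemokine and growth factor receptors, 17 of 30 were higher, 8 were lower and 5 did not pass the test. Among the groups described below, 20 of 31 were higher against B cells and 15 of 30 against thrombocytes. Against eosinophil-like cells 12 of 30 were higher, 7 were lower and 11 were not called. The list's median log2 fold change was then 0.03, against 0.34 over all genes. IL1RAP, the shared chain of interleukin 1 receptors, was 8.55, 7.54 and 6.36 per 10000 in the monocytes, against 0.23, 0.331 and 0.398 in the remaining cells (log2 fold change 4.19 ± 0.19 (SE), adjusted p = 1.3e-07). The decoy receptor IL1R2 was 7.6, 8.33 and 2.44 in the monocytes, against 0.21, 0.25 and 0.121 in the remaining cells (log2 fold change 4.25 ± 0.40 (SE), adjusted p = 1.3e-05). Library 3 had the lowest IL1R2, as it had for MMP9. IL6R (log2 fold change 3.55), TNFRSF1A (log2 fold change 3.16) and CSF2RA (log2 fold change 3.17) were higher. Lower were, among others, the ATP receptor P2RX7 (log2 fold change -3.75), the transforming growth factor beta receptor TGFBR2 (log2 fold change -2.60) and the chemokine receptor CXCR4 (log2 fold change -1.88). P2RX7 and CXCR4 were also lower than in B cells, but were not called against thrombocytes or eosinophil-like cells. TGFBR2 was lower than in each of these groups.

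Of the myeloid transcription factors, 27 of 42 were higher, 9 were lower and 6 did not pass the test. TFEC, a relative of MITF, was 7.81, 5.9 and 7.74 per 10000 in the monocytes, against 0.155, 0.14 and 0.243 in the remaining cells (log2 fold change 4.70 ± 0.19 (SE), adjusted p = 6.6e-08). PPARG, a nuclear receptor for fatty acids, was 7.42, 7.84 and 2.79 in the monocytes, against 0.152, 0.208 and 0.0967 in the remaining cells (log2 fold change 4.49 ± 0.36 (SE), adjusted p = 3.7e-06). CEBPB, a C/EBP factor of myeloid cells, was 1.23, 2.36 and 1.72 in the monocytes, against 0.0345, 0.0718 and 0.0582 in the remaining cells (log2 fold change 3.56 ± 0.22 (SE), adjusted p = 8.1e-07). CEBPA (log2 fold change 2.80), MITF (log2 fold change 3.16), ZEB2 (log2 fold change 2.69), FOS (log2 fold change 2.69) and IRF8 (log2 fold change 0.83) were higher too. The lower ones included MAF (log2 fold change -4.95), IRF4 (log2 fold change -3.86), RUNX1 (log2 fold change -2.09) and GFI1 (log2 fold change -2.23). Among the groups described below, 26 of 40 were higher against B cells and 23 of 41 against thrombocytes. Against eosinophil-like cells 20 of 41 were higher, 3 were lower and 18 were not called, where 24.4% of all genes were higher. CEBPA, CEBPB and MITF were among those not called there. ZEB2 was not called against thrombocytes, nor IRF8 against B cells. MAF was not called against eosinophil-like cells, nor GFI1 against thrombocytes. NR4A2 did not pass the test (-1.15, adjusted p = 0.079), but was lower with hen as a block (adjusted p = 0.0032) and without library 1 (adjusted p = 0.011).

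In lipid handling, 17 of 21 genes were higher, 2 were lower and 2 did not pass the test. Among the groups described below, 15 of 22 were higher against B cells and 16 of 21 against thrombocytes. Against eosinophil-like cells only 6 of 21 were higher, 4 were lower and 11 were not called, where 24.4% of all genes were higher. LRP1, a scavenging receptor, was 3.45, 3.0 and 3.81 per 10000 in the monocytes, against 0.0629, 0.0884 and 0.114 in the remaining cells (log2 fold change 4.23 ± 0.16 (SE), adjusted p = 5.4e-08). The fatty acid-binding protein FABP3 (log2 fold change 4.19), the acyl-CoA synthetase ACSL1 (log2 fold change 3.65) and the prostaglandin synthase PTGS2 (log2 fold change 2.18) were higher. The cholesterol exporters ABCA1 (log2 fold change -1.18) and ABCG1 (log2 fold change -0.90) were lower than in the remaining cells. ABCG1, however, was higher in the monocytes than in thrombocytes and eosinophil-like cells, and was not called against B cells. ABCA1 was lower than in B cells and eosinophil-like cells, and was not called against thrombocytes. Of 10 iron and heme genes 4 were higher, 3 were lower and 3 did not pass the test. FTH1, ferritin heavy chain, was 35.7, 85 and 69.5 in the monocytes, against 6.5, 10.3 and 9.04 in the remaining cells (log2 fold change 2.80 ± 0.31 (SE), adjusted p = 3.6e-05). It was also higher than in B cells and eosinophil-like cells, but was not called against thrombocytes. HMOX1, heme oxygenase, was 7.3, 6.36 and 3.07 in the monocytes, against 0.185, 0.212 and 0.126 in the remaining cells (log2 fold change 4.29 ± 0.29 (SE), adjusted p = 1.5e-06). The heme transporter SLC48A1 (log2 fold change -1.13) and ceruloplasmin CP (log2 fold change -0.71) were lower.

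Genes associated with heterophils were also high in the monocytes. MMP9, BHLHE40, NR4A3, IL1R2 and RSFR, the 5 members tested and each also in another list, were all higher, and CATH1 was below the filter. Only 6 of the 16 genes in this list were in the matrix under the listed name. BHLHE40, a transcriptional repressor, was 17.2, 11.5 and 12.2 per 10000 in the monocytes, against 0.819, 0.726 and 0.992 in the remaining cells (log2 fold change 3.85 ± 0.19 (SE), adjusted p = 2.1e-07). NR4A3, an immediate-early nuclear receptor, was 28.1, 8.68 and 8.73 in the monocytes, against 1.95, 0.969 and 1.92 in the remaining cells (log2 fold change 2.98 ± 0.44 (SE), adjusted p = 2.2e-04). It was highest in library 1. The summed level of the heterophil-associated genes was 60.2, 37.7 and 27.9 per 10000 in the monocytes, against 3.19, 2.22 and 3.22 in the remaining cells, and whether heterophils lay within the gate was not tested.

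Outside the lists, the genes of largest change included WDFY3, a scaffold protein of selective autophagy (log2 fold change 4.87), KCNB2, a potassium channel (log2 fold change 4.76), and ASS1, the argininosuccinate synthase of arginine synthesis (log2 fold change 4.60). On the lower side were the T-cell factor TOX (log2 fold change -6.51), and ETS1 (log2 fold change -6.00) and SATB1 (log2 fold change -6.49), which lymphocytes also express. The T-cell factors TCF7 (log2 fold change -7.20) and BCL11B (log2 fold change -7.05), also of large change, belong to the T-cell list above.

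Part of the level in the remaining cells came from cells next to the gate. Without the cells that had MMR1L4 or a sum of LY86, CD14 and CSF3R of 2 or more, FN1 was 0.175, 0.113 and 0.152 per 10000 in the remaining cells, with a log2 fold change of 7.36 ± 0.18 (SE). The log2 fold change was then 6.99 for VCAN, 5.99 for S100A12, 5.55 for CSF1R and 5.93 for IL1B. Of 131 named genes tested in this comparison, 25 moved by over 1.5 times, all of them upward, and 0 changed sign.

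**Figure D2:**
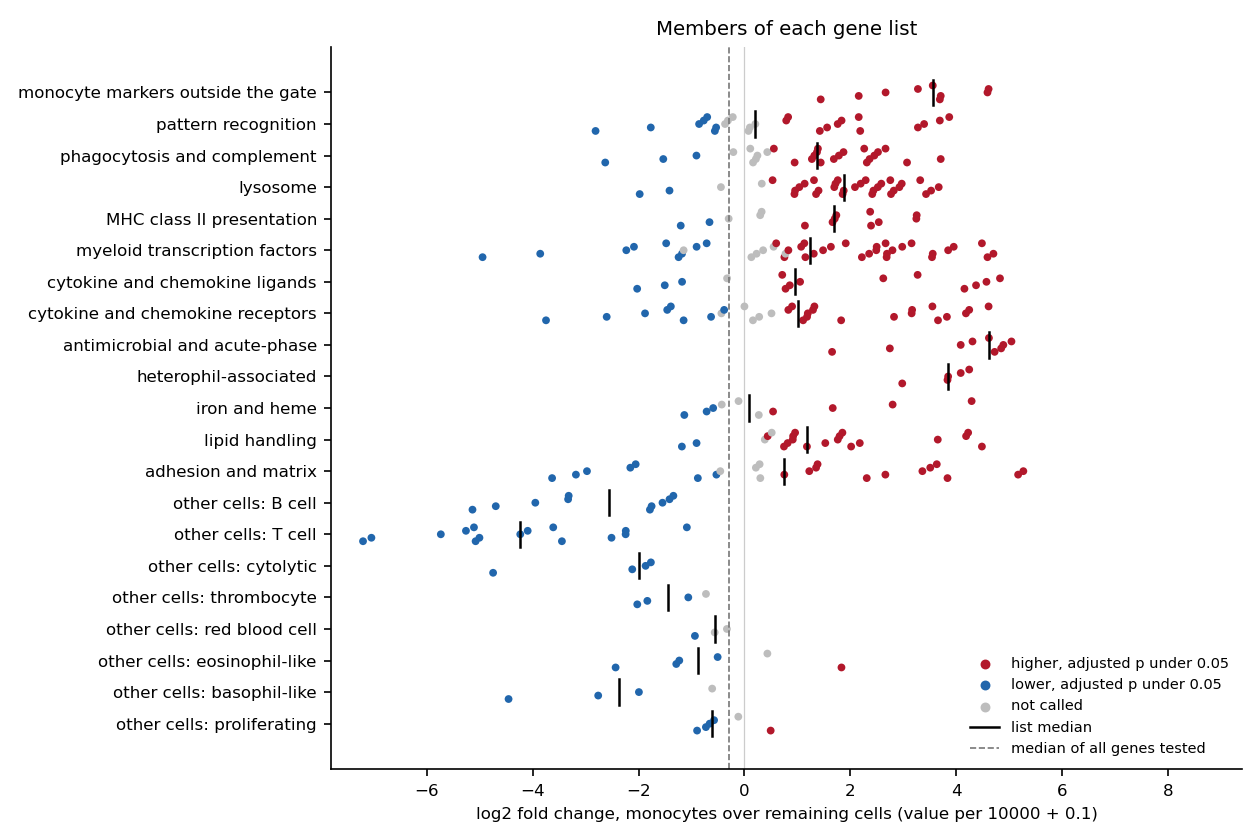
Log2 fold change of monocytes over remaining cells, on the scale of value per 10000 plus 0.1, for each tested member of 21 gene lists (red higher, blue lower, grey not called), with the list median as a black line and the median of all tested genes, -0.29, as a dashed line. All 9 antimicrobial and acute-phase genes lie on the right and all 15 T-cell genes on the left, while the adhesion genes lie on both sides.

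The monocytes varied more between hens than the remaining cells did. Over the 834 genes whose monocyte level averaged 2 per 10000 or more, the median ratio of the highest to the lowest library was 1.47 in the monocytes, against 1.2 in the remaining cells, which were also more numerous. The libraries lay over 2 times apart for 146 of these genes (17.5%) in the monocytes, against 50 in the remaining cells. Of the 146, library 1 was the lowest for 96 and the highest for 29. EXFABP, SAA, CD74, BLB2 and FTH1 were lowest in library 1, while NR4A3, IL1B and CD44 were highest there. MMP9, IL1R2 and PPARG were near each other in libraries 1 and 2 and lower in library 3. S100A12, VCAN and FN1 differed least among the 14 genes plotted by library. The largest ratio, 8.54, was that of AVD, avidin, at 0.516, 4.41 and 2.65 per 10000, a gene chosen after its values were seen. Library 1 also had the lowest median ribosomal share per monocyte, 1.55%, against 4.57% and 3.58% in libraries 2 and 3, and the highest mitochondrial share, 15.9%, against 12.4% and 14.9%. With 1 library for each hen, differences between hens and between preparations cannot be told apart.

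**Figure D3:**
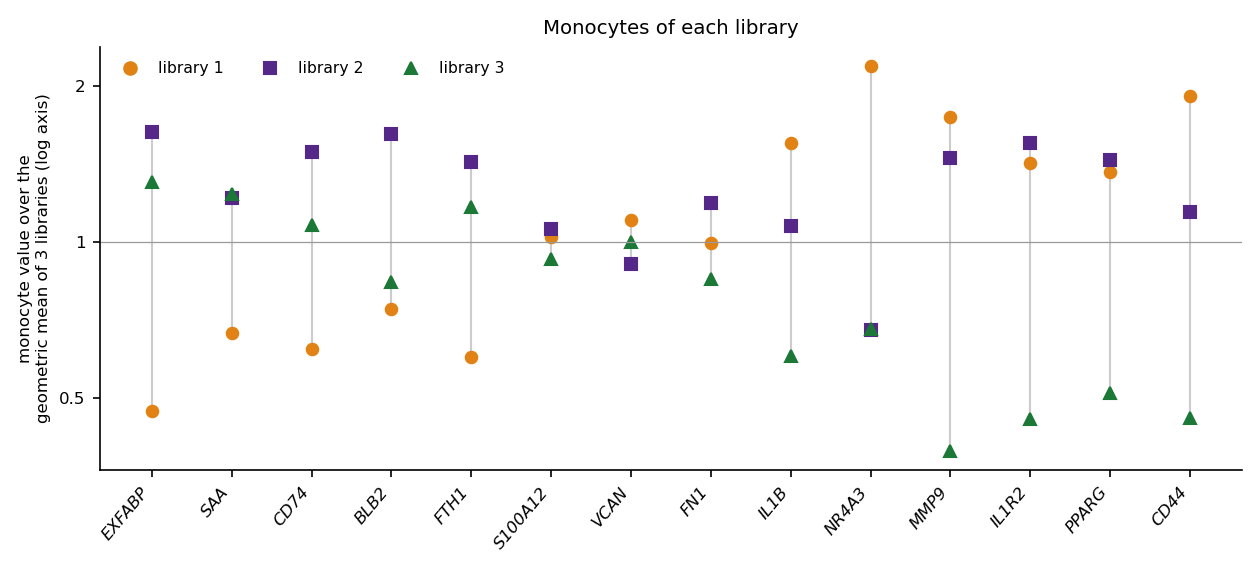
Monocyte level of 14 genes in each library over the geometric mean of the 3 libraries, on a log axis, with library 1 as orange circles, library 2 as purple squares and library 3 as green triangles. Library 1 is lowest for EXFABP, SAA, CD74, BLB2 and FTH1 and highest for NR4A3, and S100A12 and VCAN stay near 1 in all 3.

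Among single monocytes of 1 library, most genes spread about as counts do. Over 834 genes that averaged 0.5 per cell or more, the median ratio of variance to mean was 1.12, and 76 genes lay above 2. IL8L1 had a ratio of 14.9 and was found in few cells, CD44 had 11.2, S100A12 had 8.82, EXFABP 8.61, SAA 6.62, IL1R2 4.15 and CD74 4.11. The highest, FRMD8 at 20.0, was chosen after its values were seen. They are given as a description, with no test. These ratios come from depth-corrected values and are not those of raw counts.

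Monocytes of each library were divided at that library's median of CD74, into 650 CD74-high and 722 CD74-low cells. Of 13 other class II genes tested, 5 were higher in CD74-high monocytes with hen as a block, and 0 were called without it. Without a hen term limma called 0 of 9270 genes at an adjusted p below 0.05, with 1193 at an unadjusted p below 0.05. The 2 sets of cells of a library deviated together, with correlations of 0.380, 0.450 and 0.360, and with hen as a block 539 genes were higher (5.81%) and 383 lower (4.13%), 922 in all (9.95%). All values that follow are from the blocked fit. Without library 1 the blocked fit called 1309 genes, without library 2 it called 569 and without library 3 it called 648. BLB2 was 41.2, 78 and 40.2 per 10000 in CD74-high monocytes, against 18.3, 45.6 and 24 in CD74-low monocytes (log2 fold change 0.89 ± 0.10 (SE), adjusted p = 3.6e-06). DMB2 was 2.84, 4.58 and 3.71 in CD74-high monocytes, against 1.36, 2.78 and 2.09 in CD74-low monocytes (log2 fold change 0.84 ± 0.12 (SE), adjusted p = 5.9e-05). The class II genes BLB1 (log2 fold change 0.95), DMA (log2 fold change 1.11) and IFI30 (log2 fold change 0.40) were higher too, and IFI30 lost its call without library 2 (adjusted p = 0.081). CIITA did not pass the test (-0.25, adjusted p = 0.53). MMR1L4 was 9.13, 11.3 and 9.08 in CD74-high monocytes, against 10.4, 11.9 and 9.29 in CD74-low monocytes. This is a description only, since the gate required MMR1L4 in every member and so removed the cells lowest in it.

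Other groups of genes went with CD74. EXFABP was 14.8, 41 and 30.9 per 10000 in CD74-high monocytes, against 3.01, 15.8 and 14.9 in CD74-low monocytes (log2 fold change 1.56 ± 0.15 (SE), adjusted p = 5.4e-07). In all, 8 of 9 antimicrobial and acute-phase genes were higher, among them SPINK2 (log2 fold change 1.58) and SAA (log2 fold change 0.96), while S100A12 did not pass the test (-0.08, adjusted p = 0.64). Lysosomal genes were higher in 18 of 32 cases and lower in 0, with 13 higher in the cells under the study's limits. MMP9 was 4.9, 3.54 and 0.797 in CD74-high monocytes, against 6.41, 5.95 and 1.75 in CD74-low monocytes (log2 fold change -0.72 ± 0.13 (SE), adjusted p = 7.0e-04). IL1B did not pass the test (-0.18, adjusted p = 0.27). Of the ribosomal protein genes, 64 of 68 were higher and 0 lower, at a median log2 fold change of 1.18, against -0.15 over all genes. CST3, which encodes the protease inhibitor cystatin C, was 3.98, 7.55 and 7.44 in CD74-high monocytes, against 0.977, 2.85 and 3.02 in CD74-low monocytes (log2 fold change 1.52 ± 0.13 (SE), adjusted p = 1.6e-07). The median mitochondrial share was 12.4% in CD74-high monocytes, against 15.9% in CD74-low monocytes, and 16 of 32 mitochondrial rows were lower. Hemoglobin was lower as well (HBA1, log2 fold change -1.43). These values move with CD74 in the same cells, and their part in the class II and antimicrobial differences was not tested. Without cells past the study's limits, an alternative added after seeing the data, 742 genes were called.

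In the same way, 492 monocytes with MMP9 (35.9%) were set against 880 without it. The share with MMP9 was 55.5% in library 1, 49.7% in library 2 and 20.0% in library 3, against 0.581% of cells with CD247 at 2 or more. With hen as a block, BHLHE40, IL1R2, NR4A3 and IL1B were higher in MMP9-positive monocytes, and SPINK2, CD74 and 33 of 68 ribosomal protein genes were lower. Without a hen term limma called 0 of 9243 genes, with 213 at an unadjusted p below 0.05. The correlations within hens were 0.380, 0.474 and 0.291, and with hen as a block 34 genes were higher (0.368%) and 60 lower (0.649%), 94 in all (1.02%). That count rested on the libraries, since without library 1 it was 194, without library 2 it was 15 and without library 3 it was 7. BHLHE40 was 18.5, 14.1 and 16.3 per 10000 in MMP9-positive monocytes, against 15.5, 9.0 and 11.2 in MMP9-negative monocytes (log2 fold change 0.48 ± 0.08 (SE), adjusted p = 0.0019). IL1R2 was 8.83, 9.84 and 3.03 in MMP9-positive monocytes, against 6.04, 6.8 and 2.28 in MMP9-negative monocytes (log2 fold change 0.49 ± 0.09 (SE), adjusted p = 0.0066). NR4A3 was 29.6, 10.1 and 11.7 in MMP9-positive monocytes, against 26.1, 7.27 and 7.95 in MMP9-negative monocytes (log2 fold change 0.40 ± 0.08 (SE), adjusted p = 0.008). So 3 of the 4 heterophil-associated genes tested were higher, each in all 3 libraries, but without library 2 none of the 3 was called (adjusted p = 0.18 to 0.25) and without library 3 only IL1R2 was (adjusted p = 0.029). IL1B (log2 fold change 0.40, adjusted p = 0.0081), HMOX1 (log2 fold change 0.48) and NR4A2 (log2 fold change 0.90) were higher as well, and each lost its call without library 2 and without library 3. SPINK2 was 1.07, 2.66 and 1.65 in MMP9-positive monocytes, against 2.22, 4.96 and 3.56 in MMP9-negative monocytes (log2 fold change -0.98 ± 0.12 (SE), adjusted p = 3.6e-05). CD74 was lower (log2 fold change -0.32, adjusted p = 0.0096), as were CEBPD (log2 fold change -0.55) and the ribosomal protein genes. The call of SPINK2 remained without each library in turn, whereas that of CD74 was lost without library 2 (adjusted p = 0.25) and library 3 (adjusted p = 0.35). CEBPD lost its call whichever library was left out, and in the cells under the study's limits (adjusted p = 0.085). Without library 1, 55 ribosomal protein genes were lower, without library 2 there was 1 and without library 3 there were 0. MMR1L4 was 9.17, 10.3 and 7.77 in MMP9-positive monocytes, against 10.7, 12.9 and 9.57 in MMP9-negative monocytes, given as a description for the same reason. The median ribosomal share was 2.67% in MMP9-positive monocytes, against 3.96% in MMP9-negative monocytes, and its part in these differences was not tested.

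**Figure D4:**
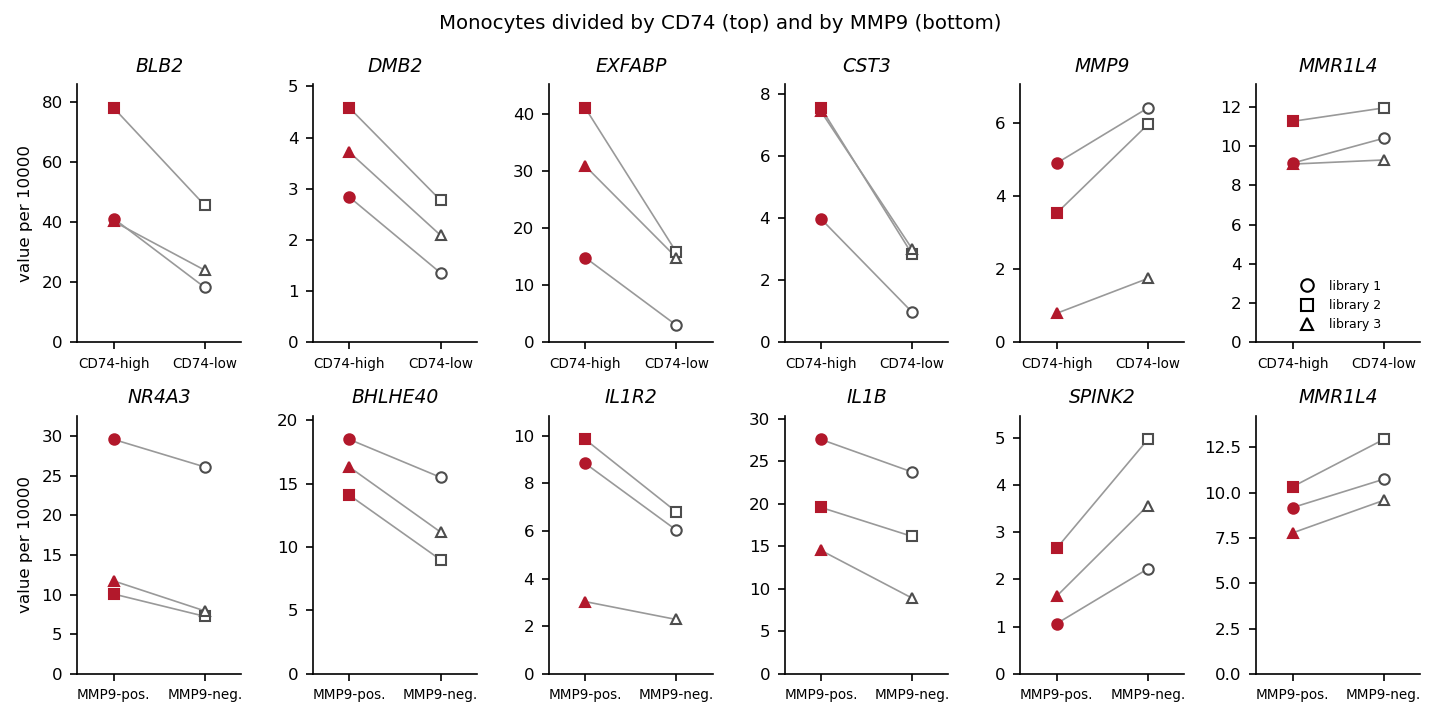
Level per 10000 in the 2 sets of monocytes of each library, joined by a line, for the division by CD74 (top row, CD74-high on the left) and by MMP9 (bottom row, MMP9-positive on the left). BLB2, DMB2, EXFABP and CST3 are higher in the CD74-high cells of all 3 libraries, NR4A3, BHLHE40, IL1R2 and IL1B in the MMP9-positive cells of all 3, and MMR1L4, a gate gene, is plotted as a description.

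The monocytes were also set against 3 other groups of blood cells, each gated by its own genes. B cells, 2271 cells with PAX5 and EBF1 summing to at least 3 and no MMR1L4, were compared because they too show antigen on class II. Their gate genes were not tested. Of 10212 genes 62.2% were called, and 2371 were higher in the monocytes (23.2%) and 3979 lower (39.0%), a split in which 37.3% of the calls were higher, and 50.6% with median-ratio scaling. CD74 was 25.1, 60.3 and 43.6 per 10000 in the monocytes, against 26.5, 31.6 and 27.5 in B cells (log2 fold change 0.51 ± 0.26 (SE), adjusted p = 0.11). It did not pass the test, but did so with hen as a block (adjusted p = 0.034), with median-ratio scaling (adjusted p = 0.019) and without library 1 (adjusted p = 0.0041). BLB1 was 6.8, 13.8 and 10.03 in the monocytes, against 11.6, 12.7 and 9.83 in B cells (log2 fold change -0.21 ± 0.24 (SE), adjusted p = 0.46). The values of both groups overlapped, and the sign of the difference changed with median-ratio scaling. BLB2 was 28, 61.1 and 31.6 in the monocytes, against 11, 17.1 and 10.7 in B cells (log2 fold change 1.57 ± 0.28 (SE), adjusted p = 3.6e-04). CIITA was 0.266, 0.184 and 0.274 in the monocytes, against 2.7, 3.54 and 2.56 in B cells (log2 fold change -3.15 ± 0.19 (SE), adjusted p = 3.1e-08). In all, 6 of 14 class II genes were higher, 3 lower and 5 not called, and without library 3 there were 3 higher. Lysosomal genes were higher in 27 of 33 cases and antimicrobial genes in 9 of 9. The 15 genes furthest below B cells included the immunoglobulin genes IGLL1 (log2 fold change -6.19) and VH26L1 (log2 fold change -7.07) and the B-cell factor BCL11A (log2 fold change -6.16).

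Thrombocytes, those left after depletion, were 206 cells with ITGA2B and ITGB3 summing to at least 3, DACH1 and IL5RA below 3, no MMR1L4 and the same limits on PAX5, EBF1 and CD247 as the monocytes, and these genes were not tested. They had a median of 616 genes per cell, against 1226 in the monocytes. Of 10205 genes 40.9% were called, and 2728 were higher in the monocytes (26.7%) and 1449 lower (14.2%), so that 65.3% of the calls were higher. Of the genes called, 1122 were at 0 in all 3 thrombocyte sums, and with a filter at a mean of 0.5 per 10000 52.5% of the calls were higher. CTSG, a granule protease of basophils, was 17.9, 39.9 and 8.83 per 10000 in the gated thrombocytes, and all 4 basophil genes were lower in the monocytes. Whether separate cells within the gate carried these genes was not tested. FN1 was 40.01, 47.7 and 34.2 in the monocytes, against 0.205, 0.331 and 0.201 in thrombocytes (log2 fold change 6.89 ± 0.24 (SE), adjusted p = 3.5e-06). Class II genes were higher in 10 of 14 cases, with CD74 at 25.1, 60.3 and 43.6 in the monocytes, against 0.921, 1.41 and 1.1 in thrombocytes (log2 fold change 5.04 ± 0.33 (SE), adjusted p = 3.5e-05). Lysosomal genes were higher in 25 of 32 cases, and in 16 without library 3. CTSB, in contrast, was 8.3, 9.55 and 7.34 in the monocytes, against 7.47, 9.85 and 9.53 in thrombocytes (log2 fold change -0.09 ± 0.20 (SE), adjusted p = 0.75), and the groups overlapped. The genes furthest below thrombocytes included TFPI, the tissue factor pathway inhibitor (log2 fold change -7.74), the potassium channel gene KCNMA1 (log2 fold change -7.41) and MYLK, myosin light chain kinase (log2 fold change -7.10). The count of calls fell to 2896 without library 2 and to 2418 without library 3, against 4177 with all 3.

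Eosinophil-like cells were 199 cells with DACH1 and IL5RA summing to at least 3, no MMR1L4 and the same limits on PAX5, EBF1 and CD247, and those genes were not tested. They had a median of 613 genes per cell. Of 9615 genes 36.0% were called, and 2347 were higher in the monocytes (24.4%) and 1117 lower (11.6%), so that 67.8% of the calls were higher, 78.8% with median-ratio scaling and 48.2% with a filter at a mean of 0.5. Of the genes called, 1187 were at 0 in all 3 sums of eosinophil-like cells. Without library 2 there were 1718 calls and without library 3 there were 1971, against 3464 with all 3. IL1B was 25.8, 17.9 and 10.1 per 10000 in the monocytes, against 0.296, 0.143 and 0.114 in eosinophil-like cells (log2 fold change 5.94 ± 0.39 (SE), adjusted p = 1.2e-04). LOC395551 was 32.9, 43.6 and 21.8 in the monocytes, against 13, 20.01 and 8.12 in eosinophil-like cells (log2 fold change 1.29 ± 0.37 (SE), adjusted p = 0.03), and it was not called whichever library was left out (adjusted p = 0.058 to 0.22). Among the 3 groups set against the monocytes, eosinophil-like cells alone had more than 1 per 10000 of this gene in every library. Class II genes were higher in 11 of 14 cases, 7 without library 3, and 0 were lower, and antimicrobial genes were higher in 8 of 9. The genes of phagocytosis and complement were more divided, with 10 of 27 higher, 6 lower and 11 not called, and without library 2 there were 5 higher. FCER1G was among the 6 lower in the monocytes. Among the genes furthest below eosinophil-like cells were RPS6KA2, a kinase of the ERK pathway (log2 fold change -6.78), ARHGAP10 (log2 fold change -7.23) and the lysophospholipid receptor GPR34 (log2 fold change -5.19).

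**Figure D5:**
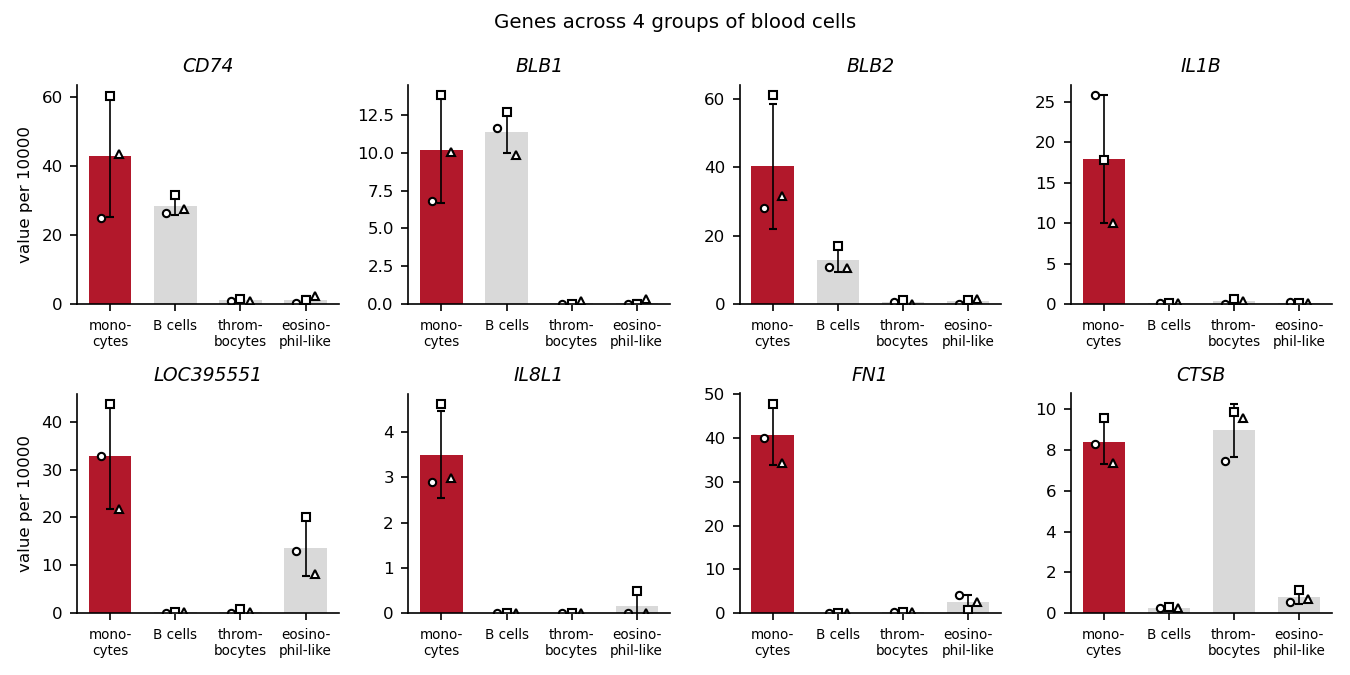
Level per 10000 of 8 genes in monocytes (red) and in B cells, thrombocytes and eosinophil-like cells (grey), with bars at the mean of 3 libraries, error bars of 1 SD and a point for each library (circle 1, square 2, triangle 3). CD74 and BLB1 are also high in B cells, CTSB in thrombocytes and LOC395551 in eosinophil-like cells, while IL1B, IL8L1 and FN1 stand in the monocytes above every other group shown.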

How the data were processed

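Blood leukocytes of 1 condition were sequenced in 4 libraries. The deposited matrix holds 15271 genes by 16936 cells as scores, whole numbers that the authors made from UMI counts of Cell Ranger (version 1.2.0 in the submitters' processing notes, a later version in the study's methods) against the RefSeq annotation of GRCg7b. The study's methods remove doublets with DoubletDetection, then apply Seurat filters of 20% mitochondrial and 5% hemoglobin reads, then SCTransform, and the number of cells in the matrix is the one the study gives after quality control. By the deposited values some cells still lie past those limits. The sources do not say which Seurat layer was deposited, and totals per cell are nearly level, so depth per sample is unknown and no count model was used. No further doublet call was made. Barcodes without a prefix were taken as library 1 by elimination. All sample columns were used.

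Values were summed per library and cell group, scaled to 10000, and tested as log2(value + 0.1) with limma 3.58.1 (trend, R 4.3.3) over all genes averaging 0.05 or more in 1 of the groups, with Benjamini-Hochberg adjustment. Fold changes on this scale understate those of low genes. Both groups of a comparison come from the same hen, so the hen was also fitted as a replicate block. The fit without a block was the planned main fit, and the block was an alternative. For the divided monocytes the values given are from the block, where the main fit called 0 genes. Deviations of paired sums correlated at 0.207, 0.0163 and 0.108 for monocytes and remaining cells. The fit was tested on simulated data with 200 changed genes. Figures were drawn with matplotlib 3.10.9.

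Genes named are the gate genes, members of the lists, and, for each comparison and direction, the 15 called genes of largest change with a mean of at least 1 in the higher group and the same direction in all 3 libraries. A few list members are not reported here. The members and the gene lists were chosen with earlier results of these data known. AVD and FRMD8 were chosen after their values were seen. Positions were looked up for 163 of the genes named, of which all were matched in RefSeq and 69 overlap another annotated gene. P-values of the fit without a block measure the spread between 3 hens, with 1 library each. Those of the blocked fit measure how far the difference within a hen varied over the 3 hens. Sequences and promoter motifs were not analysed here. Alternatives covered the pseudocount, the filter, the scaling, the block, each library left out, library 4 in place of library 3, the study's cell filters, a stricter gate and remaining cells without those next to the gate.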

Additional observations from a re-analysis of the deposited data

How the results depend on the processing

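The replicate block changed the calls of the divided monocytes, with 922 genes by CD74 and 94 by MMP9 where no block gave 0. In alternatives of the blocked fit that were chosen after seeing the data, the CD74 count was 742 with the study's cell filters, 988 with median-ratio scaling, 928 with library 4, and 1309, 569 and 648 without library 1, 2 and 3. The MMP9 count was 97, 96 and 76 in the same order, and 194, 15 and 7 without library 1, 2 and 3. Without the block both stayed at 0 in every alternative run. With the block, the other comparisons gave 7029, 6570, 3936 and 3168 calls, against 6936, 6350, 4177 and 3464.

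A filter at a mean of 0.5, which tests fewer genes, gave 3216 calls against the remaining cells, 3103 against B cells, 2566 against thrombocytes and 2028 against eosinophil-like cells. With each library left out there were 5656 to 6777, 4912 to 6022, 2418 to 3545 and 1718 to 2942. Among the genes named, the sign of the log2 fold change turned for 4, none of them called. With each library left out it ranged for CD44 against the remaining cells over -0.062 to 0.83, for BLB1 against B cells over -0.37 to 0.075, for CD83 against B cells over -0.13 to 0.25 and for CTSB against thrombocytes over -0.21 to 0.053. Median-ratio scaling gave 0.13 for BLB1 against B cells and 0.20 for CTSB against thrombocytes. The 3 hens and the 43 to 99 cells of the smaller groups in a library limit precision.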
